A study of Rattus norvegicus with 12 samples.

Results

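The imprinted genes of fetal growth described here are 7: Meg3, Dlk1, Cdkn1c, Peg3, Grb10, Plagl1 and Mest. The platform table linked a probe of the array to 6 of these 7 genes, 1 probe each, and Peg3 is not analysed here. All 6 lay above the filter on dim probes (a mean of 6.07 log2 over the arrays), among 10174 such genes of 14497 with a probe. RNA was taken from livers of Sprague Dawley fetuses on day 19 of gestation, with term at day 21. The fasted dams went without food for 48 hr from day 17, a model of intrauterine growth restriction (IUGR, poor growth of the fetus), and the control dams ate freely. For each diet, polysome RNA (transcripts that sediment with several ribosomes in a sucrose gradient) and total liver RNA were put on separate Affymetrix Rat Gene 1.0 ST arrays, which gave 4 groups of 3 arrays. The labels call the arrays biological replicates and name 3 dams per diet, and polysome RNA came from pooled polysome preparations. The number of fetuses behind each sample is not stated in the labels.

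An imprinted gene is transcribed mainly or only from the copy inherited from one parent. Many such genes set the size of the fetus: several that are active on the paternal copy promote growth, and several that are active on the maternal copy restrain it. Dlk1 and Meg3 are the coding and the non-coding gene of one imprinted domain, Dlk1 read from the paternal and Meg3 from the maternal copy. These assignments come chiefly from the mouse.

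Meg3 is the only long non-coding RNA among the 6, by the biotype in RefSeq's GRCr8 annotation. In that annotation Dlk1 and Meg3 lie on chromosome 6 with 1 annotated gene between them, and 1 microRNA hairpin, Mir770, lies inside Meg3. Between Meg3 and Dio3, the coding gene at the far end of the domain, the table lists 52 further hairpins of its 419. The mature products of Mir770 are printed because their hairpin lies within the annotated interval of Meg3; whether the RNA that the Meg3 probe detects holds it was not tested. The seed (bases 2 to 8) is in capitals, and both sequences are from RefSeq, GRCr8, plus strand, at chr6:134298094-134298115 and chr6:134298129-134298145.
rno-miR-770-5p: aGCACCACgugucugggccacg
rno-miR-770-3p: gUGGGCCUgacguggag

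Promoter sequences (250 bases before to 50 after the annotated start, RefSeq GRCr8) were found for 6 of the 7 listed genes, all but Cdkn1c. The promoters of Meg3 and Mest are printed because these are the members with the least settled and the most settled polysome result. Capitals mark each CG dinucleotide, whose cytosine is methylated on one parental copy at imprinting control regions; CG reads the same on both strands. The Meg3 promoter lies at chr6:134273806-134274105 and that of Mest at chr4:60321564-60321863, both on the plus strand.
Meg3: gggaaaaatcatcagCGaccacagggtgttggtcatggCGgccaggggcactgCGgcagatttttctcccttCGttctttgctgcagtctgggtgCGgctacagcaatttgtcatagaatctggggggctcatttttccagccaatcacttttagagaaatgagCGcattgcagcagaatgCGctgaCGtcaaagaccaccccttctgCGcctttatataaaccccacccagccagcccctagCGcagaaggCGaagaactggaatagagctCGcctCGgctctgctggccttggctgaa
Mest: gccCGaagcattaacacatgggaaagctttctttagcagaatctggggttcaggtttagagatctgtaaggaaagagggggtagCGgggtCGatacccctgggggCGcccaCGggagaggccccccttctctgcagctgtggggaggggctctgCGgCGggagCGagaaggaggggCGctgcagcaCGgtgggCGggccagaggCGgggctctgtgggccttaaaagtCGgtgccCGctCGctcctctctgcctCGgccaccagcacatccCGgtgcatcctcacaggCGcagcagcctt

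These windows held 13 CG in Meg3 and 18 in Mest, against 45 in Dlk1, 44 in Grb10, 29 in Plagl1 and 16 in Peg3. Over the 33469 promoters of the table the median was 7, the 10th and 90th percentiles were 1 and 30, and 94.5% held at least 1 CG. Each of the 6 therefore lay above the median, and Dlk1 and Grb10 above the 90th percentile. The letters TGACGTCA, the palindromic cyclic AMP response element, were searched for after the Meg3 sequence had been read. They occurred in 2 of the 6 windows, those of Meg3 and Peg3, and in 1.83% of all promoters, which describes the letters only.

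The 12 arrays had median intensities from 101.3 to 108.3, and across all probes the arrays of one group correlated at 0.9914 to 0.9961. All 10 hepatocyte and hepatoblast markers listed, among them Alb and Afp, were above the filter, with summed intensities from 99785 to 117109. Markers of the exocrine pancreas summed to 4408 in fed total 1, against 1416 and 1979 in the other fed total arrays and 1077 to 1228 in the fasted total arrays. Within its group, the polysome array fasted 2 was the highest for Meg3, Dlk1, Cdkn1c and Grb10 and the lowest for Plagl1 and Mest. In a group of 3 an array is often the highest or the lowest, and the share over all genes was not counted. Changes below are in log2(intensity + 1) with the standard error (SE) of a limma fit over all 12 arrays. Adjusted p is Benjamini-Hochberg's over the 10174 genes with a threshold of 0.05, and n is 3 arrays per group throughout. The number of arrays limits the precision.

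The first comparison set polysome RNA against total RNA, which asks how much of a transcript sediments with ribosomes relative to other transcripts of the liver. In fasted dams, 3 of the 6 imprinted genes passed the threshold: Mest and Grb10 were lower on polysomes and Plagl1 was higher. In fed dams 1 of 6 passed, Mest, again lower. Across all genes tested, 43.7% passed in fasted dams (25.5% higher and 18.2% lower) and 43.5% in fed dams (24.1% higher and 19.4% lower), so the members' counts are near or below the background. These fits did not pair total with polysome arrays. With diet and replicate number together as a random block, 3 of the 6 passed in fed dams. The share of all genes in that fit is not given here. The median change of the 6 members was -0.15 log2 in fasted and 0.09 in fed dams, beside 0.054 and 0.042 over all genes.

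Mest, a protein of the alpha/beta hydrolase fold expressed in mesoderm, gave the clearest result. In fasted dams its intensity was 1150, 977 and 1136 on polysomes, against 1827, 1430 and 1724 in total RNA. In fed dams it was 1037, 1054 and 1154 on polysomes, against 1768, 1516 and 1809 in total RNA. Every polysome array lay below every total array in both diets. The change was -0.61 ± 0.11 log2 in fasted dams, a 1.52-fold lower level (limma adjusted p = 0.000494), and -0.65 ± 0.11 in fed dams, 1.57-fold lower (limma adjusted p = 0.00031). Groups that do not overlap were common, at 52.6% of all genes in fasted and 52.9% in fed dams. Only 6.33% of genes in fasted and 5.8% in fed dams had a more negative change than Mest. It passed in all 12 fits that left out 1 array, in each diet. Here and below, leaving out an array outside the compared groups can alter only the estimated spread, not the change itself.

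Stellate and mesenchymal markers moved the same way. Their 12 markers summed to 9184 to 9608 on polysomes against 13726 to 14454 in total RNA of fasted dams, and to 8785 to 9087 against 13155 to 14089 in fed dams. Of the 12, 10 fell in fasted and 11 in fed dams, where 18.2% and 19.4% of all genes were lower, led by Dcn, the matrix proteoglycan decorin, at -1.98 ± 0.14 and -2.47 ± 0.14. The receptor gene Pdgfrb changed by -1.30 ± 0.093 and -1.15 ± 0.093 log2. Endothelial markers fell too, 9 of 9 in fasted and 6 of 9 in fed dams, while of 9 macrophage markers 6 fell and 1 rose in fasted dams and 5 fell in fed dams. Of 10 hepatoblast and hepatocyte markers, 5 fell and 1 rose in fasted dams, and 4 fell and 1 rose in fed dams. Their median changes were -0.15 and -0.14 log2, beside -0.83 and -0.84 for the stellate and mesenchymal list. Of 8 erythroid markers, 2 fell and 1 rose in each diet. None of the defining markers of these lists with a probe lay below the filter. The part of these cell types in the result for Mest was not tested.

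**Figure D1:**
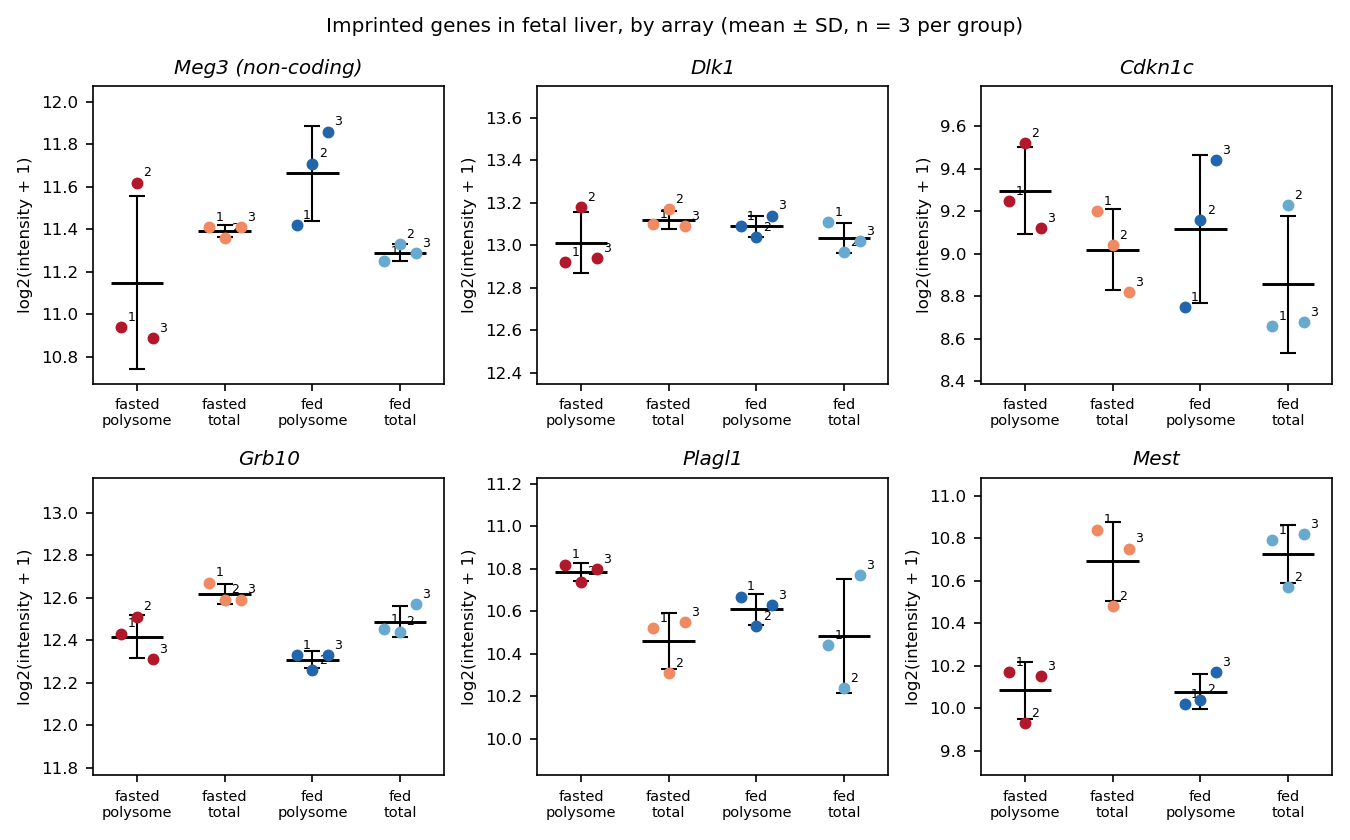
Level of each imprinted gene in every array as log2(intensity + 1), in fasted polysome, fasted total, fed polysome and fed total RNA; numbered points are arrays, bars are the mean and error bars the SD of 3 arrays. Each panel spans 1.4 log2. Mest separates polysome from total RNA in both diets, and Meg3 spreads widely on polysomes (SD 0.41 in fasted and 0.22 in fed dams) but narrowly in total RNA (0.033 and 0.039).

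Grb10, an adaptor that binds the insulin and IGF receptors and restrains their signal, was slightly lower on polysomes. Its intensity was 5521, 5830 and 5090 on polysomes against 6524, 6173 and 6167 in total RNA of fasted dams. In fed dams it was 5146, 4897 and 5151 on polysomes against 5596, 5556 and 6068 in total RNA. The groups did not overlap in either diet, and the differences were small: -0.20 ± 0.072 log2 in fasted (limma adjusted p = 0.0387) and -0.18 ± 0.072 in fed dams (limma adjusted p = 0.0598). A block on replicate number ended the call in fasted dams (limma adjusted p = 0.055). The change in fed dams passed with diet and replicate number together as a random block (limma adjusted p = 0.0321). It also passed with quantile normalization (0.0454), with trend and robust priors (0.0235) and without fasted polysome 2 (0.0498). Leaving out 1 array kept the call in fasted dams in 6 of 12 fits (limma adjusted p from 0.0218 to 0.165; it was lost without fed total 1, fasted polysome 1 or 3, or any fasted total array), and it was lost with arrays centred on their median (limma adjusted p = 0.0817), with no filter (0.0651) and with only the arrays compared (0.0736).

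Plagl1, a zinc finger transcription factor known in the mouse as a regulator of other imprinted genes, leaned the other way. It measured 1811, 1705 and 1781 on polysomes against 1467, 1267 and 1495 in total RNA of fasted dams, without overlap. The fed dams gave 1633, 1478 and 1584 on polysomes against 1387, 1205 and 1750 in total RNA, and here fed total 3 lay above all polysome arrays. The change was 0.33 ± 0.12 log2 in fasted dams (1.26-fold, limma adjusted p = 0.0343) and 0.13 ± 0.12 in fed dams (limma adjusted p = 0.395). Without fed total 3 the change in fed dams was 0.27 and passed (limma adjusted p = 0.0433). The fasted call was lost in 4 of 12 fits that left out 1 array (without fasted polysome 1 or 3 or fasted total 1 or 2, limma adjusted p up to 0.134) and with quantile normalization (limma adjusted p = 0.0513). With a fasted array left out, the call held only without fasted polysome 2 or fasted total 3.

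Cdkn1c, the p57 inhibitor of cyclin-dependent kinases, varied most between arrays of one group in total RNA. It measured 608, 734 and 555 on polysomes against 588, 524 and 450 in total RNA of fasted dams, and 429, 572 and 693 against 403, 601 and 410 in fed dams. The groups overlapped in both diets, and the changes of 0.28 ± 0.19 and 0.26 ± 0.19 log2 did not pass (limma adjusted p = 0.25 and 0.283). Their 95% intervals ran from -0.12 to 0.68 in fasted and from -0.14 to 0.66 in fed dams.

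Dlk1, a membrane-bound relative of the Notch ligands that marks fetal hepatoblasts, was close to even between the fractions. Its intensity was 7743, 9269 and 7873 on polysomes against 8795, 9207 and 8703 in total RNA of fasted dams. In fed dams it was 8738, 8417 and 9034 on polysomes against 8834, 8018 and 8322 in total RNA. The changes were -0.11 ± 0.080 (limma adjusted p = 0.309) and 0.06 ± 0.080 log2 (limma adjusted p = 0.597), with 95% intervals from -0.28 to 0.07 in fasted and from -0.12 to 0.23 in fed dams.

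Meg3, the non-coding neighbour of Dlk1, was not lower on polysomes in every array. In fasted dams it measured 1958, 3137 and 1891 on polysomes against 2724, 2620 and 2728 in total RNA. Fasted polysome 2 thus lay above all 3 total arrays and the other two polysome arrays below them. In fed dams it measured 2733, 3338 and 3707 on polysomes against 2431, 2566 and 2501 in total RNA, and every polysome array was higher. The change was -0.25 ± 0.16 log2 in fasted (limma adjusted p = 0.232) and 0.37 ± 0.16 in fed dams (limma adjusted p = 0.0759). With diet and replicate number together as a random block the fed change passed (limma adjusted p = 0.0457). It also passed with only the arrays compared (0.0259) and with arrays centred on their median (0.0479). Without fasted polysome 2, the fasted change was -0.48 log2 and passed (limma adjusted p = 0.00332), so that 1 array decides that call. The fed change also passed without that array (0.37 log2, limma adjusted p = 0.00758) and without fed polysome 1 (0.49, limma adjusted p = 0.0328).

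**Figure D2:**
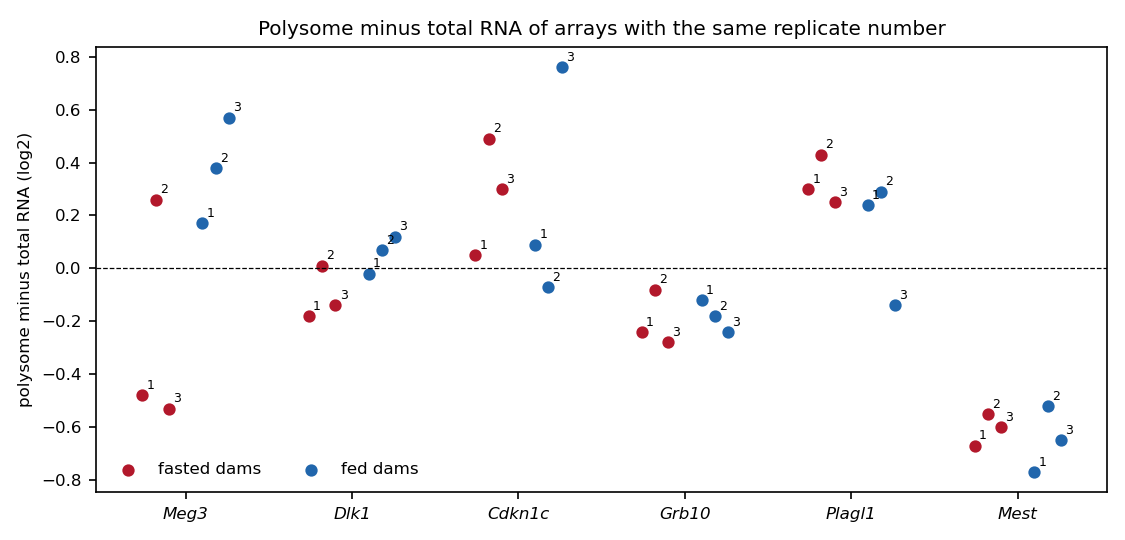
Polysome minus total RNA (log2) for arrays of one diet with the same replicate number, fasted dams left and fed dams right for each gene; labels give the number. Mest lies between -0.77 and -0.52 in all 6 pairs, and Meg3 is the member that lies below -0.4 in 2 of the 3 fasted pairs and above 0 in the 3 fed pairs.

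The contrast between the non-coding Meg3 and the coding members was tested on the difference itself, by subtracting Meg3's value from that of every gene in the same array and taking polysome minus total RNA as the mean of both diets. Over both diets 3 of the 6 members passed, Mest and Grb10 lower and Plagl1 higher, beside 57.2% of all genes (33% higher and 24.2% lower). For Meg3 itself the difference was 0.06 ± 0.11 log2, at the 52.1 percentile of all genes. That value is the mean of changes of opposite sign, -0.25 in fasted and 0.37 in fed dams, and describes neither diet. Differences from Meg3 within each diet were not tested. Of the 5 coding members, 1 differed from Meg3 over both diets, Mest, at -0.69 ± 0.16 log2 (limma adjusted p = 0.000378). The other four differed from Meg3 by -0.25 to 0.21 log2 and did not pass (limma adjusted p from 0.308 to 0.798). Without fasted polysome 2, Plagl1 minus Meg3 was 0.30 log2, against 0.17 with it, and passed (limma adjusted p = 0.045); it passed in no other fit that left out 1 array. Their 95% intervals were -0.41 to 0.24 for Dlk1, -0.12 to 0.53 for Cdkn1c, -0.58 to 0.07 for Grb10 and -0.16 to 0.49 for Plagl1. Of all other genes 21.6% differed from Meg3, 7.96% with a higher and 13.6% with a lower change.

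Every gene in that test shares the array values of Meg3, so the variances that limma pools are not independent between genes. With the variance of each gene alone, 12.7% of genes differed from Meg3, and Mest still did (SE 0.17, adjusted p = 0.0393). Mest lay below Meg3 in 6 of 6 pairs of polysome and total arrays with one diet and number. An exact two-sided test that swapped polysome and total within these pairs gave p = 0.0312, the smallest that its 64 allocations can give.

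H19, the maternally read non-coding RNA beside Igf2, gave another picture than Meg3. It measured 10050, 9757 and 9097 on polysomes against 15244, 14664 and 14799 in total RNA of fasted dams, and 8862, 8732 and 8361 against 14321, 14040 and 14931 in fed dams. The groups lay far apart, at -0.63 ± 0.066 log2 in fasted (limma adjusted p = 1.05e-05) and -0.74 ± 0.066 in fed dams (limma adjusted p = 3.98e-06). Against Meg3 the difference over both diets was -0.75 ± 0.16 log2 (limma adjusted p = 9.39e-05). With H19's own variance the adjusted p was 0.0127, and the exact test by swaps within pairs gave p = 0.0312, with H19 below Meg3 in 6 of 6 pairs. Of the 48 non-coding RNAs listed besides Meg3, 5 had a probe. Rpph1, the RNA of ribonuclease P, fell on polysomes by 1.49 ± 0.15 log2 in fasted and by 1.33 ± 0.15 in fed dams, and Tug1 fell by 0.28 ± 0.071 and by 0.23 ± 0.071 (limma adjusted p = 8e-06, 1.92e-05, 0.00604 and 0.0203). Terc, the telomerase RNA, rose by 0.76 ± 0.15 and 0.66 ± 0.15 log2 (limma adjusted p = 0.00106 and 0.0028). Snhg11 gave -0.74 ± 0.26 in fasted (limma adjusted p = 0.0323) and -0.26 ± 0.26 in fed dams (limma adjusted p = 0.439).

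**Figure D3:**
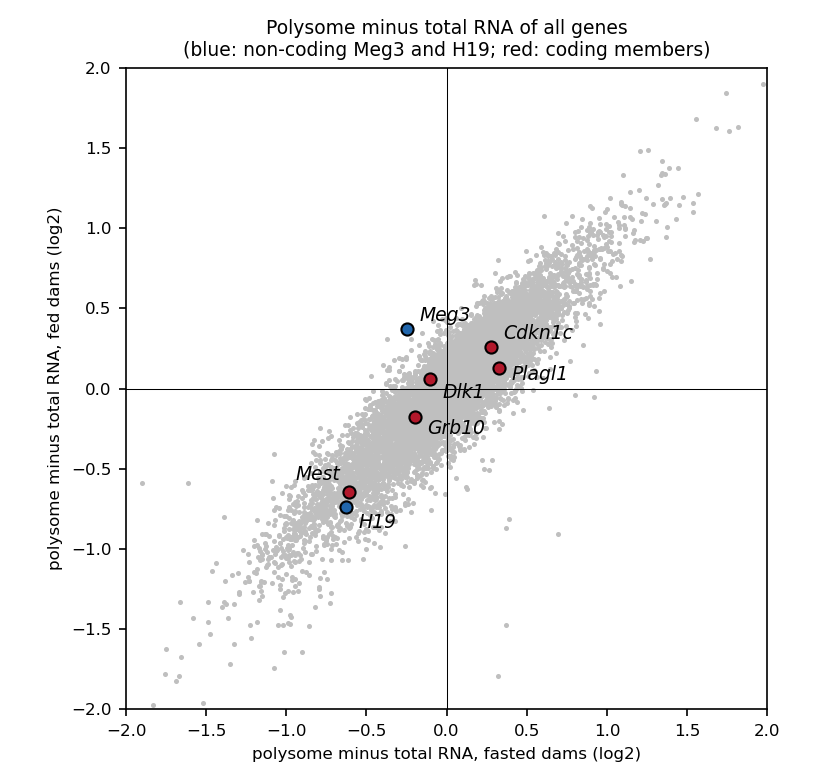
Polysome minus total RNA of each gene in fasted dams (x axis) and fed dams (y axis), both in log2; grey points are the 10174 genes tested, red the coding members, blue the non-coding Meg3 and H19, and 4 genes lie outside the axes. Mest and H19 lie at the lower left, and Meg3 lies off the diagonal, at -0.25 in fasted and 0.37 in fed dams.

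Other genes known to be imprinted in the mouse were taken from a list of 52, of which 37 had a probe and 30 were above the filter; whether each is imprinted in the rat was not checked. On polysomes 3 were higher and 9 lower in fasted dams, and 6 higher and 9 lower in fed dams. Over all genes 43.7% passed in fasted (25.5% higher and 18.2% lower) and 43.5% in fed dams (24.1% higher and 19.4% lower), so the totals called were near the background. Their median changes were -0.07 and -0.09 log2. Besides Dcn and H19, the largest changes were those of Sgce, a sarcoglycan (-1.16 ± 0.11 in fasted and -1.26 ± 0.11 in fed dams), the amino acid transporter gene Slc38a4 (-0.96 ± 0.17 and -0.92 ± 0.17) and the transporter gene Slc22a18 (-0.85 ± 0.15 and -0.92 ± 0.15). Igf2r, the receptor that clears IGF2, changed by -0.78 ± 0.12 in fasted and -0.55 ± 0.12 in fed dams, and the tetraspanin gene Cd81 by -0.51 ± 0.095 and -0.62 ± 0.095 (limma adjusted p at most 0.00281 for these genes in either diet).

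Igf2, the paternally read growth factor, measured 7401, 7915 and 7342 on polysomes against 9453, 9146 and 8969 in total RNA of fasted dams, without overlap. In fed dams it measured 8526, 8506 and 8995 on polysomes against 9145, 9593 and 9467 in total RNA, again without overlap. The change of -0.28 ± 0.065 log2 in fasted dams passed (limma adjusted p = 0.00323), and that of -0.12 ± 0.065 in fed dams did not (limma adjusted p = 0.168). The difference between both changes, -0.17 ± 0.092 log2, did not pass (limma adjusted p = 0.856).

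**Figure D4:**
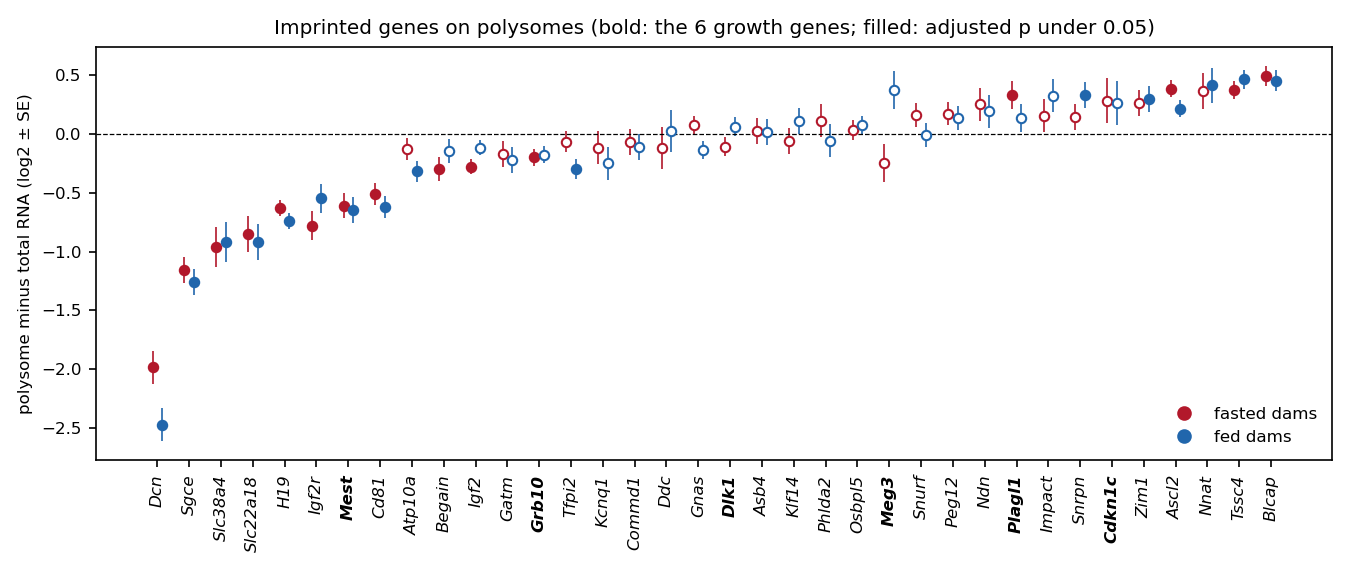
Polysome minus total RNA (log2, bars SE) of the 6 growth genes (bold) and 30 other genes imprinted in the mouse, fasted dams left and fed dams right for each gene; filled points passed an adjusted p of 0.05. Dcn is lowest at -1.98 and -2.47, and Blcap at 0.49 in fasted and Tssc4 at 0.46 in fed dams are the highest; Mest sits near Igf2r and Cd81.

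The second comparison asked whether maternal fasting altered the imprinted genes, in total RNA and on polysomes. In total RNA 0 of the 6 members passed (limma), while 1.03% of all genes did (0.737% higher and 0.295% lower). The changes ran from -0.04 log2 for Mest to 0.16 for Cdkn1c. None of the 6 reached an unadjusted p of 0.05 either, the smallest being 0.0906 for Grb10, while 1646 of the 10174 genes tested did. Grb10 was higher in each fasted array than in any fed array (0.13 ± 0.072 log2, limma adjusted p = 0.397), and so was Meg3, at 2724, 2620 and 2728 in fasted against 2431, 2566 and 2501 in fed dams (0.11 ± 0.16, limma adjusted p = 0.806). Such separation was met in 24.7% of all genes. Dlk1 measured 0.09 ± 0.080 and Plagl1 -0.02 ± 0.12 log2 (limma adjusted p = 0.663 and 0.949). The 95% intervals allow a change of -0.26 to 0.19 for Mest, -0.27 to 0.22 for Plagl1 and -0.24 to 0.56 for Cdkn1c. For H19 the change was 0.05 ± 0.066 log2 and for Igf2 -0.03 ± 0.065 (adjusted p = 0.794 and 0.859 by limma).

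On polysomes 0 of 6 members passed as well (limma), against 2.01% of all genes (1.59% higher and 0.423% lower). Of the 6, 1 had an unadjusted p under 0.05, Meg3. Of the 10174 genes tested, 2122 did, so the members' count is not above the background. Meg3 measured 1958, 3137 and 1891 in fasted against 2733, 3338 and 3707 in fed dams, so that the fasted arrays 1 and 3 lay below all fed arrays and fasted 2 within their range. The change was -0.51 ± 0.16 log2 (95% interval -0.86 to -0.17), a 1.43-fold lower level, with an unadjusted p of 0.00666 and a limma adjusted p of 0.0983. It was negative in all 12 fits that left out 1 array, from -0.75 to -0.38 log2, and passed in 1 of them, without fasted polysome 2 (limma adjusted p = 0.00781). The fits without a total array could only return the same -0.51 log2. Across all groups, the mean level of Meg3 was 11.66 ± 0.22 log2 in fed polysome, 11.39 ± 0.033 in fasted total, 11.29 ± 0.039 in fed total and 11.15 ± 0.41 in fasted polysome RNA (SD). In that order the arrays of fed polysome and fasted total RNA did not overlap, nor did those of fasted and fed total RNA, while those of fasted polysome RNA spanned the range of fed total RNA.

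None of the coding members passed on polysomes. Plagl1 was higher in each fasted array than in any fed array (1811, 1705 and 1781 against 1633, 1478 and 1584), a separation met in 20.8% of all genes, with a difference of 0.17 ± 0.12 log2 (limma adjusted p = 0.419). The difference was -0.08 ± 0.080 log2 for Dlk1, 0.18 ± 0.19 for Cdkn1c, 0.11 ± 0.072 for Grb10 and 0.01 ± 0.11 for Mest (limma adjusted p from 0.408 to 0.982).

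Among the other imprinted genes 0 of 30 passed in total RNA, where Nnat, a neuronal proteolipid gene, had the largest change (0.55 ± 0.15 log2, limma adjusted p = 0.0921), ahead of Sgce (0.47 ± 0.11, 0.056) and Slc38a4 (-0.39 ± 0.17, 0.297). On polysomes 3 of 30 rose and 0 fell, where 1.59% of all genes rose and 0.423% fell. Dcn rose to 405, 373 and 371 in fasted against 240, 198 and 249 in fed dams (0.74 ± 0.14 log2, limma adjusted p = 0.024). Sgce rose to 562, 504 and 459 against 360, 314 and 345 (0.58 ± 0.11, limma adjusted p = 0.024). Tfpi2, a protease inhibitor gene, rose to 110, 95 and 124 against 82, 84 and 84 (0.38 ± 0.088, limma adjusted p = 0.0442). The calls for Dcn and Sgce held in 8 of 12 fits that left out 1 array (lost without fed polysome 2 or 3 or fasted polysome 1 or 3, limma adjusted p up to 0.104 for both), and that for Tfpi2 held in 1 of 12, without fasted polysome 2 (limma adjusted p from 0.011 to 0.15). Fits without a total array could not move these polysome changes. With a polysome array left out, the calls for Dcn and Sgce held only without fed polysome 1 or fasted polysome 2. With only the arrays compared Sgce lost its call (limma adjusted p = 0.0571), as did Tfpi2 (0.148), which also lost it with no filter (0.069) and with arrays centred on their median (0.0515). Of the 12 stellate and mesenchymal markers, 2 rose on polysomes and 0 fell, Dcn and the retinol-esterifying enzyme gene Lrat (0.34 ± 0.079 log2, limma adjusted p = 0.0439), and of the 9 macrophage markers 2 rose. The stellate and mesenchymal list did not move as a whole. Its median change was 0.07 log2, and its lowest was -0.33 ± 0.13 for Col1a1 (limma adjusted p = 0.17). The part of these cells in the changes was not tested.

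The third comparison was the difference between the fasting effects in polysome and in total RNA. None of the 6 members passed, nor did any of the 10174 genes (limma, 0%); 549 genes had an unadjusted p under 0.05. Meg3 had the largest difference of the members, -0.62 ± 0.23 log2 (95% interval -1.11 to -0.13, unadjusted p = 0.0165, limma adjusted p = 0.856). It was negative in all 12 fits that left out 1 array, from -0.86 to -0.49. The other members lay between -0.16 ± 0.11 for Dlk1 and 0.20 ± 0.16 for Plagl1, with limma adjusted p from 0.883 to 0.996.

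**Figure D5:**
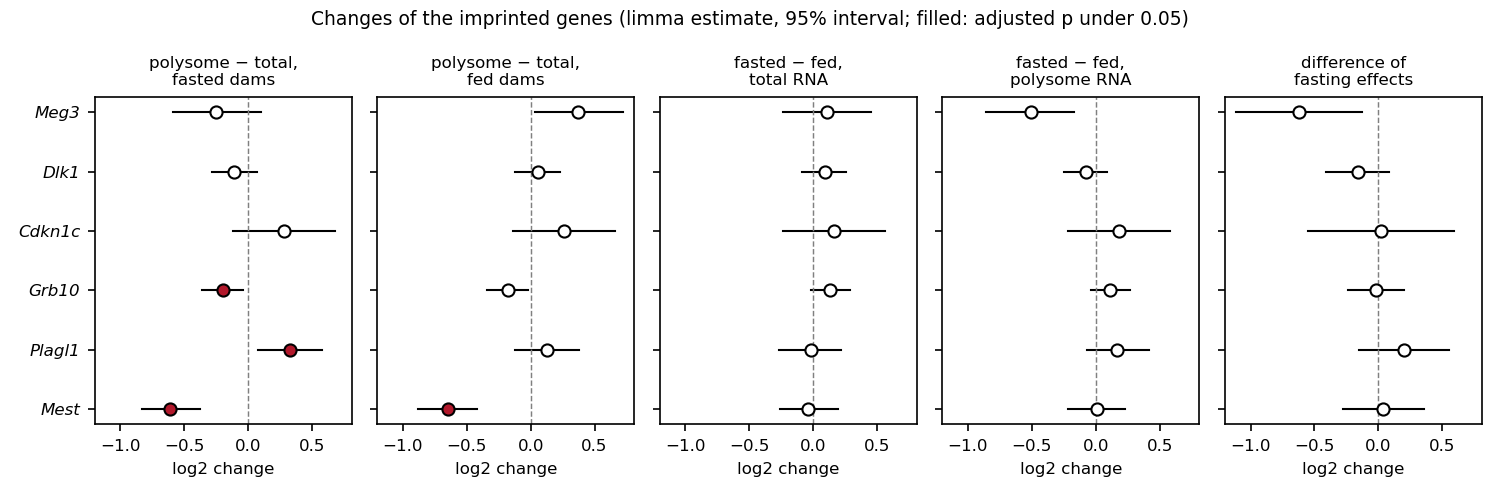
Change of each imprinted gene (log2, limma estimate with its 95% interval) in polysome minus total RNA of fasted and of fed dams, fasted minus fed in total and in polysome RNA, and the difference of the fasting effects; filled points passed an adjusted p of 0.05. Mest is filled in both polysome comparisons, and no point is filled in the 3 panels on fasting.

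Genes of the pathways in which the members act were counted from 3 further lists, to be read against the shares over all genes of 25.5% higher and 18.2% lower in fasted dams and 24.1% higher and 19.4% lower in fed dams. Of 16 genes of insulin and IGF receptor signalling, where Grb10 acts, 3 were higher and 3 lower on polysomes of fasted dams, and 4 higher and 2 lower in fed dams. Grb14, the paralogue of Grb10, was higher (0.67 ± 0.11 in fasted and 0.84 ± 0.11 log2 in fed dams), as was the receptor substrate gene Irs1 (0.59 ± 0.12 and 0.78 ± 0.12), with a limma adjusted p of at most 0.00185. The receptor gene Insr was lower in fasted dams (-0.42 ± 0.098, limma adjusted p = 0.00388) and measured -0.10 ± 0.098 in fed dams (limma adjusted p = 0.426). Of 17 G1 kinases, cyclins and inhibitors, where Cdkn1c acts, 9 were higher and 0 lower in fasted dams, and 5 higher and 2 lower in fed dams. Cdkn2c, the p18 inhibitor, was 0.66 ± 0.11 and 0.81 ± 0.11 log2 higher, and Cdk4 0.39 ± 0.069 and 0.38 ± 0.069. Of 22 genes of Notch and Delta signalling, to which Dlk1 is related, 3 were higher and 9 lower in fasted dams, and 3 higher and 6 lower in fed dams, with the nicastrin gene Ncstn at -0.74 ± 0.076 and -0.66 ± 0.076 log2. Fasting changed 0 genes of the 3 lists past the threshold in total or in polysome RNA (limma); the largest changes were those of Cdkn1a, the p21 inhibitor, at 0.44 ± 0.14 and 0.48 ± 0.14 log2 (limma adjusted p = 0.161 and 0.0917). The median changes of the lists in the polysome comparisons lay between -0.14 and 0.19 log2.

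The genes whose level followed a member most closely were found by Pearson's r over the 12 arrays. These share diets and fractions, so the values describe likeness only. For Meg3 they were Mars1, the methionyl-tRNA synthetase (r = 0.957), Gtf3c1, a subunit of transcription factor IIIC (0.912), and Emc9 (0.906). Mars1 measured 1534, 1896 and 1552 on fasted polysomes, with array 2 again the highest, against 1693, 1909 and 2040 on fed polysomes. Choice by likeness to Meg3 favours that order. For Mest they were Igsf10 (0.981), Ssr1, a subunit of the translocon-associated complex (0.977), and Gpm6a (0.975). Their polysome minus total changes ran from -1.34 to -0.71 log2 over both diets. That is no separate result, because genes picked for likeness to Mest share its fall on polysomes. The closest to Grb10 were Stra6l (0.956), Cracr2b (0.954) and Des, the desmin gene that is also on the stellate list (0.950), to Plagl1 Nfat5 (0.885), Hhex (0.881) and Lpp (0.875), to Cdkn1c Ppcs (0.891), Mgst2 (0.891) and Coq8b (0.875), and to Dlk1 Trim25 (0.826), RT1-CE15 (0.811) and Klk12 (0.810).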

How the data were processed

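The authors deposited an intensity for every probe on every array, which the submitters' processing notes credit to RMA, with no version stated there. The values ran from 3.62 to 21344, a linear scale, and log2(value + 1) was tested. RMA scales all arrays alike, so a polysome minus total difference is relative to the other RNAs of the arrays. Of 28826 probes, 15209 were linked to 1 gene; 15178 of these were matched to current symbols by Entrez identifier. A gene with several probes took the brightest. Genes with a mean above the 40th percentile of all probes (6.07 log2) were kept. limma 3.58.1 in R 4.3.3 fitted 4 group means to 12 arrays (8 residual, 5.16 prior degrees of freedom), two-sided, with Benjamini-Hochberg adjustment. Figures used Python 3.11.15 and matplotlib 3.10.9.

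Members and lists were chosen with earlier results of these data known. Text names all members; of each list, at most the 6 largest changes past the threshold, or the 3 largest where none passed, plus Igf2 and H19, and at most 3 markers; and the 3 genes most like each member. Deviations of same-numbered total and polysome arrays of a diet correlated at 0.15 to 0.36 in 6 of 6 pairs, so the numbers were taken to pair these arrays. The labels do not say that such arrays share a liver. Fed and fasted arrays of one number gave -0.14 to 0.25. In simulated data for polysome minus total RNA in fed dams, only a small part of the 10174 genes was changed. Changes of 1.3-fold were recovered in 48% of cases, 1.5-fold ones in 80% and 2-fold ones in 94%, and 0.09% of unchanged genes were called. In the real data 43.5% of genes passed in this comparison, so the adjustment is less strict there. The simulated shares therefore do not measure recovery in the real data. Alternatives were other filters, scalings, pseudocounts (0 and 16), probe summaries, priors, only the arrays compared, replicate blocks and leaving out each array; using each gene's own variance, and swaps within pairs, for the test against Meg3 were added after seeing the data.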

Additional observations from a re-analysis of the deposited data

How the results depend on the processing

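Of the members' and named genes' values under alternatives, 980 kept direction and side of the threshold, 38 lost and 13 gained a call, and 20 changed sign, none of them past the threshold. The members called on polysomes in fed dams numbered 2 with arrays centred on their median and with quantile normalization. The same count came with trend and robust priors and with only the arrays compared. They numbered 3 with diet and replicate number together as a random block. Leaving out 1 array gave 1 to 3 in fed and 1 to 4 in fasted dams, and 0 to 1 for fasting on polysomes. Genes called for fasting in total RNA fell to 57 with no filter and 42 with only the arrays compared (17 to 147 leaving out 1 array). On polysomes they were 93 with no filter, 317 with the stricter filter, 394 with trend and robust priors, 40 with only the arrays compared and 309 with the replicate number as a block (11 to 755 leaving out 1 array, the highest without fasted polysome 2). Genes differing from Meg3 numbered 1288 with each gene's own variance and 1699 to 4685 leaving out 1 array. Leaving out 1 array moved the fasting change across 0 for Plagl1 (-0.15 to 0.12) and Mest (-0.11 to 0.07) in total RNA, for Mest (-0.04 to 0.08) and Cdkn1c (0 to 0.34) on polysomes, and the difference of effects for Cdkn1c (-0.17 to 0.18, and 0 with quantile normalization), Grb10 (-0.07 to 0.03) and Mest (-0.06 to 0.12); the cause was not tested. The replicate block changed no other call of a member than those given for Meg3 and Grb10. Arrays centred on their median moved the split of calls on fasting polysomes to 176 higher and 26 lower, against 162 and 43, and quantile normalization to 167 and 77.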

Other observations

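Ranked by the fasting change on polysomes, from the most negative, Meg3 stood 21 of 10174 genes at -0.51 log2, and did not pass (limma adjusted p = 0.0983). Ranked by the difference of the fasting effects it stood 5, behind Ugt2b37 (-1.31), Cyp2b1 (-1.02), Sult1b1 (-0.68) and Cpb1 (-0.67), none of which passed (limma adjusted p from 0.856 to 0.887).

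The spread of Meg3 between polysome arrays was 0.41 log2 in fasted and 0.22 in fed dams, against 0.033 and 0.039 in total RNA of the same diets (SD, n = 3 each). By summed markers fasted polysome 2, where Meg3 was highest, was the lowest of its group for endothelial cells (4829, against 5259 and 5096), megakaryocytes (3151, against 3688 and 3285), macrophages (6522, against 6768 and 6857) and erythroid cells (54032, against 54052 and 54614). It was the highest for stellate and mesenchymal cells (9608, against 9184 and 9455), hepatocytes (106452, against 105399 and 105114) and the exocrine pancreas (1426, against 1259 and 1187), and lay between the others for cholangiocytes (726, against 741 and 625). Their part in the level of Meg3 was not tested.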
